A study of Mus musculus with 22 samples.

Results

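The Hox genes of the HoxA, HoxB, HoxC and HoxD clusters were followed across mouse embryonic stem (ES) cells that differ in the Dux gene and in exposure to a DNMT1 degrader. Members were all protein-coding genes with a GENCODE M21 symbol made of Hox, a cluster letter and a number, which gave 39 genes of 47729 in the files. Of these, 38 are described here, and all counts and sums of members below are over these 38. Median changes of members are over those tested in a comparison. RNA sequencing was deposited for 22 libraries in 2 sets that share no control. In the untreated set there were 3 E14 libraries (titled E14-chen, taken here as the unedited ES cell line), 3 Dux-KO clones (15, 22 and 52) and 4 Dux n=1 clones (titled Duxnto1; 17, 22, 31 and 40), edited with CRISPR-Cas9 per the labels. Dux n=1 was read as 1 copy of Dux kept. The treated set held WT, Dux-KO22 (KO22) and Dux-N22 (N22) cells, each with DMSO or with GSK-3484862 for 3 days, a compound that causes loss of DNMT1, the enzyme that maintains DNA methylation, with 2 libraries in each of the 6 groups. KO22 was read as 1 Dux-KO clone and N22 as 1 Dux n=1 clone, so genotype and clone cannot be told apart there. The dose is given as 1 uM in the treatment protocol and as 2 uM in the design text, and it is uncertain. All cells were grown in serum with LIF, and the titles name no culture or batch. P-values measure the spread between these libraries. In the untreated edited groups this spread includes differences between clones, and within E14 and the treated groups it may be technical.

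Hox genes encode homeodomain transcription factors that give cells of the embryo their position along the head to tail axis, and within a cluster their order on the chromosome follows the order in which they are used. Low-numbered (anterior) genes act towards the head and high-numbered (posterior) genes towards the tail and the ends of the limbs. In ES cells the clusters are known to be held silent by Polycomb complexes, and their promoters are rich in CpG. DNA methylation sits at CpG, and DNMT1 copies it at cell division. Dux encodes a transcription factor that switches on genes of the 2-cell embryo.

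Promoter windows show the CpG content around 4 genes whose counts are described below. Windows are from RefSeq on GRCm38.p6, from 250 bases before to 50 bases after the RefSeq transcription start, written 5′ to 3′ on the gene's strand, with each CG in capitals. They were chosen to span the range of CG numbers among the members called in a comparison. The windows are chr2:74667975-74668274 on the plus strand for Hoxd13, chr2:74762730-74763029 on the plus strand for Hoxd1, chr11:96318017-96318316 on the plus strand for Hoxb4 and chr6:52218524-52218823 on the minus strand for Hoxa7.
Hoxd13: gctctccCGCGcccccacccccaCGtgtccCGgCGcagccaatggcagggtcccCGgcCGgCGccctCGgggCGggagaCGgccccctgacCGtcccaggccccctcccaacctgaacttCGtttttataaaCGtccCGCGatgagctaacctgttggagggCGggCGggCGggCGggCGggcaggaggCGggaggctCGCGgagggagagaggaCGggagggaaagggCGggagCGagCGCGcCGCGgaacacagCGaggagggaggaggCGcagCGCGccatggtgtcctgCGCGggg
Hoxd1: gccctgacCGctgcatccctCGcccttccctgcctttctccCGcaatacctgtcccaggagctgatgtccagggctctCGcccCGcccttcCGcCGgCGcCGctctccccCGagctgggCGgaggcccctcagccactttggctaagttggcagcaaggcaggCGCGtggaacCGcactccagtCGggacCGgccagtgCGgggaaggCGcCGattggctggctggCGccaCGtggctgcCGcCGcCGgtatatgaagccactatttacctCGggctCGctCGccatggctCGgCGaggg
Hoxb4: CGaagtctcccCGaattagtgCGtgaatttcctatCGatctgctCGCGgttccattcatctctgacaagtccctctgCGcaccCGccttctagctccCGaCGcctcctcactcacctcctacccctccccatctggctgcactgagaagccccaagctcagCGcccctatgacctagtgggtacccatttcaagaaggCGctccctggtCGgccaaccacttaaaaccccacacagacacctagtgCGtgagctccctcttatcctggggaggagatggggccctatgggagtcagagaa
Hoxa7: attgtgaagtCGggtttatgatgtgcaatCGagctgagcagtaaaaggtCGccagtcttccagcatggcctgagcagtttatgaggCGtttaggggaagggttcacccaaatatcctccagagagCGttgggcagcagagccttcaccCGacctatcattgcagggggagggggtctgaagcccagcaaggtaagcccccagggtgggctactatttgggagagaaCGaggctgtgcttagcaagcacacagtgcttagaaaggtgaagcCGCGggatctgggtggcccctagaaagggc
The Hoxd13 window has 37 CG, a number that 5.58% of all 32851 windows in the table reach. Hoxd1 has 29 (12.9% of windows reach it), Hoxb4 has 14 (36.3%) and Hoxa7 has 9 (45.8%). CG reads the same on both strands. The table held 24 windows for 22 of the 38 members, with a median of 14.5 CG against 7 over all windows. A count of CG is a description of the letters and carries no methylation level.

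Hox transcripts made up a very small part of every library. Library totals ran from 15803194 to 19427794 counts, and Hox counts from 168 to 461 a library, which is 10.2 to 25.02 CPM (counts per 1000000 counts of the library). Between 22 and 32 of the 38 members had at least 1 count in a library, 10 members had a count in every library and no member was at 0 everywhere. A count of 0 allows up to 3 counts, or 0.154 to 0.190 CPM, and this covers counting error only. The label check on the Dux gene listed as Duxf3 gave 0 to 1 counts in E14, 0, 5 and 1 in Dux-KO clones 15, 22 and 52, 0 in each of the 4 KO22 libraries, 1 and 1 in WT with DMSO and 19 and 18 in WT with GSK-3484862. In untreated cells it therefore did not separate the Dux-KO clones from E14. Dux is a repeated gene and reads that map to several places were not counted.

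Transcripts were concentrated in a few members, most of them posterior. The 8 members with the most counts were Hoxc13, Hoxd13, Hoxb9, Hoxa7, Hoxd1, Hoxa10, Hoxb13 and Hoxc12, and they held 77.4% of the 7113 Hox counts. The 16 posterior members (numbers 9 to 13) held 71.2%, the 15 central members (4 to 8) 19.5% and the 7 anterior members (1 to 3) 9.29%. The 4 members numbered 13 alone held 46.0%. By cluster, HoxC held 33.6%, HoxD 22.8%, HoxA 22.7% and HoxB 20.9%. This order differed between groups. HoxA had the highest mean sum in E14 (4.16 CPM, beside 3.65 for HoxC), Dux-KO (4.43 and 3.93) and KO22 with DMSO (5.61 and 4.38). It had the lowest in WT with DMSO (2.05 and 7.95), N22 with DMSO (2.57 and 4.07) and N22 with GSK-3484862 (2.66 and 10.5).

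**Figure D1:**
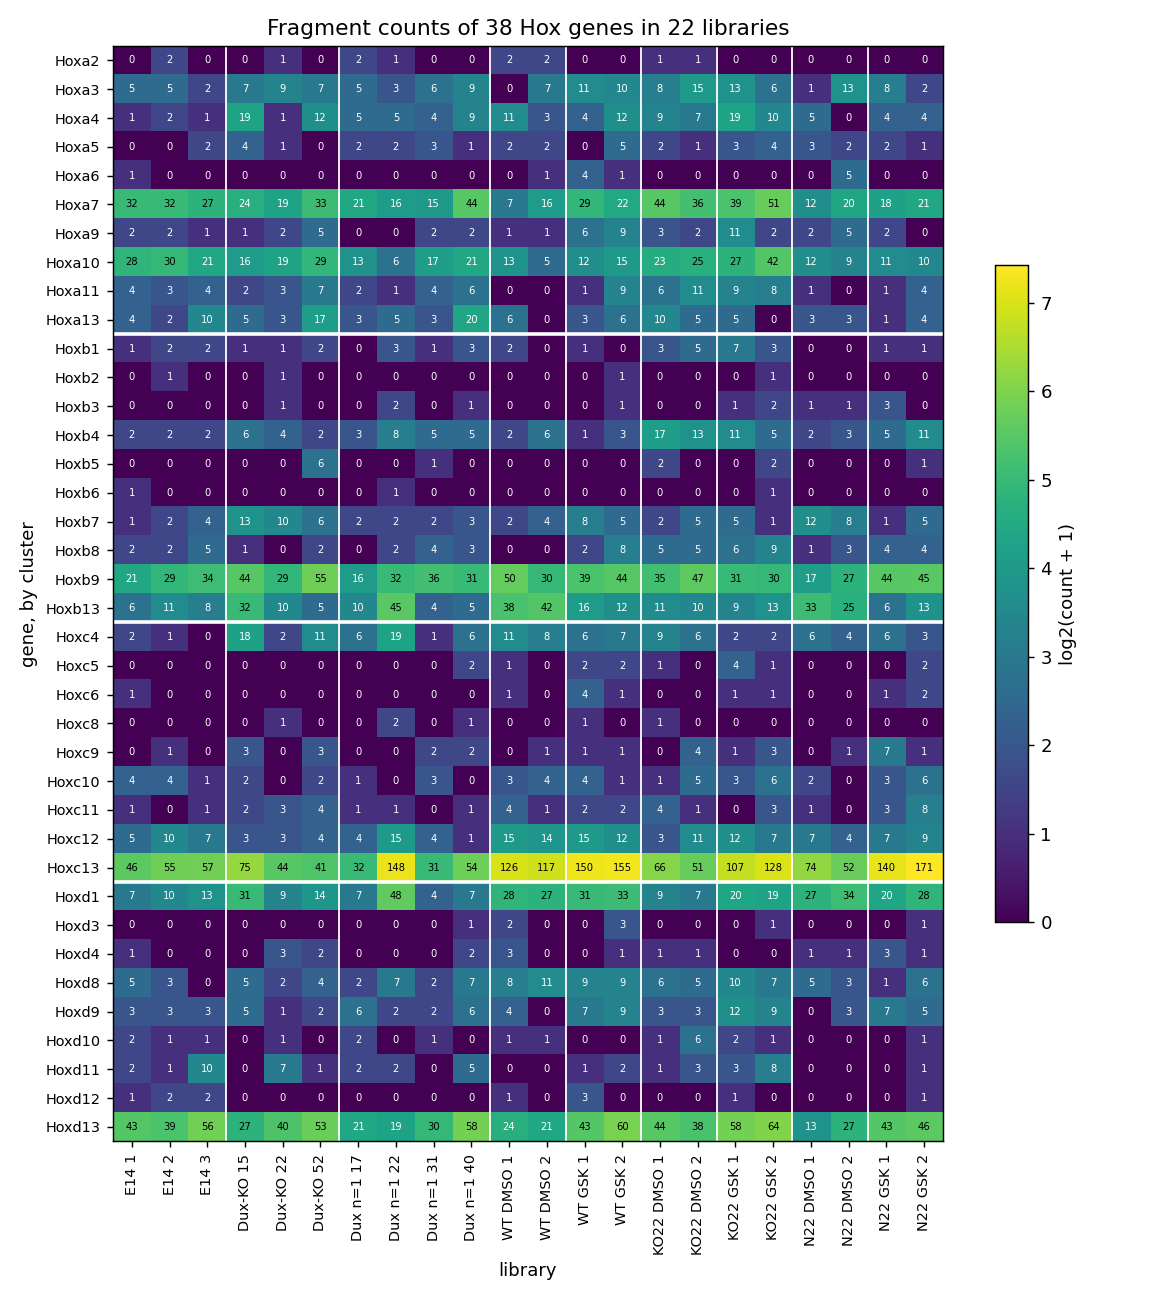
Fragment counts of 38 Hox genes (rows, by cluster, in order of number) in each of the 22 libraries (columns, by group); colour is log2(count + 1) and the printed number is the count. Rows of Hoxc13, Hoxd13 and Hoxb9 are bright in all libraries, while most rows hold counts near 0.

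Per length of exon, the mean over the 22 libraries was 1.93 CPM per kb for Hoxc13, 0.869 for Hoxd13, 0.740 for Hoxb9, 0.571 for Hoxd1 and 0.499 for Hoxa7. Hoxc12 (0.412), Hoxb13 (0.402) and Hoxa10 (0.308) came next. The ranges of neighbours in this order overlap, so the order is that of the means. At the other end, Hoxb6 had 3 counts, Hoxb2 had 4, Hoxc8 had 6 and Hoxd3 had 8 over all libraries together. Reads from a gene and from a partner on the other strand cannot be told apart, since counting did not use strand, and the exons of 15 members overlap another gene, by more than 50% of exon length in 3 of them (Hoxb3, Hoxd3 and Hoxd4). Among the members called below, Hoxa7 is so overlapped (20.4% of exon length, by Hoxaas3).

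**Figure D2:**
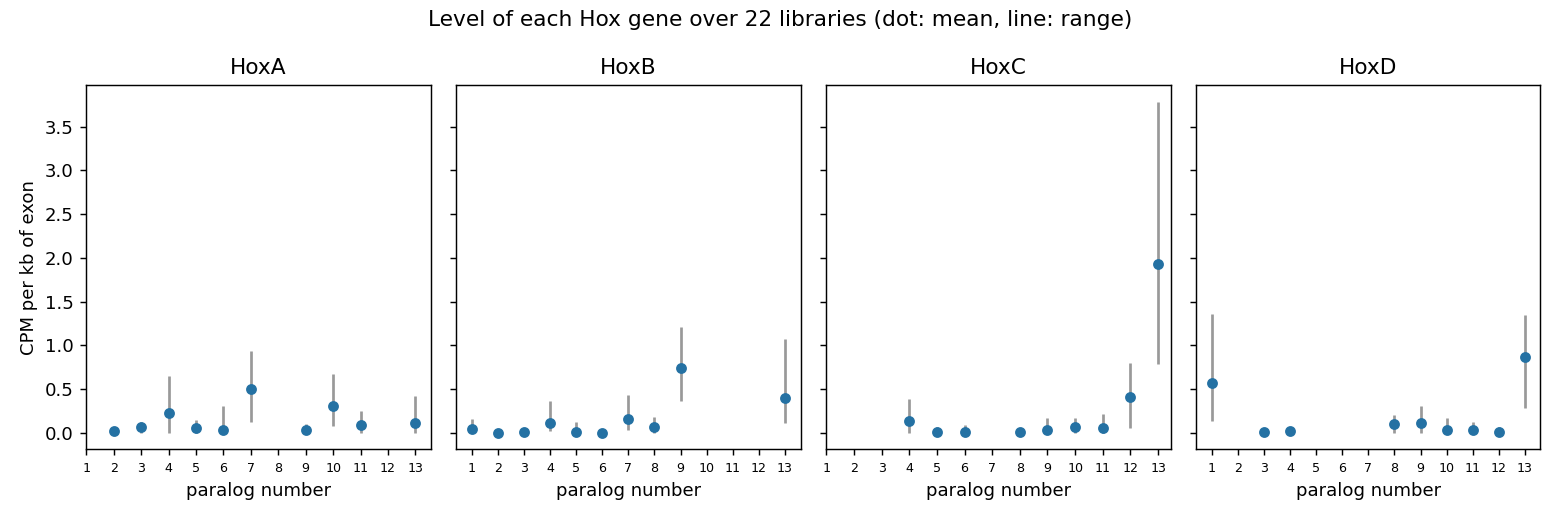
Level of each Hox gene in CPM per kb of exon (y axis) against its number in the cluster (x axis), 1 panel a cluster; dots are means over the 22 libraries and lines run from the lowest to the highest library. Hoxc13, with a mean of 1.93, stands above the other genes.

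Low counts limited which members could be tested. Of the 38 members, 8 passed the filter on low counts in the untreated set and 11 in the treated set, 7 of them in both, and 26 passed in neither set. Those 26 had between 3 and 118 counts over all libraries and at most 20 in any single library. The tests were edgeR quasi-likelihood tests with Benjamini-Hochberg adjustment over all genes tested (14796 untreated and 16641 treated), and "called" means an adjusted p below 0.05. Over 12 comparisons there were 19 calls on 8 members, and the share of all genes called is given with each comparison below. Where a call compared 2 groups, the libraries of those groups did not overlap in CPM. With 2 libraries a group this is likely for any called gene. Changes below are log2 fold changes with standard errors (SE).

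**Figure D3:**
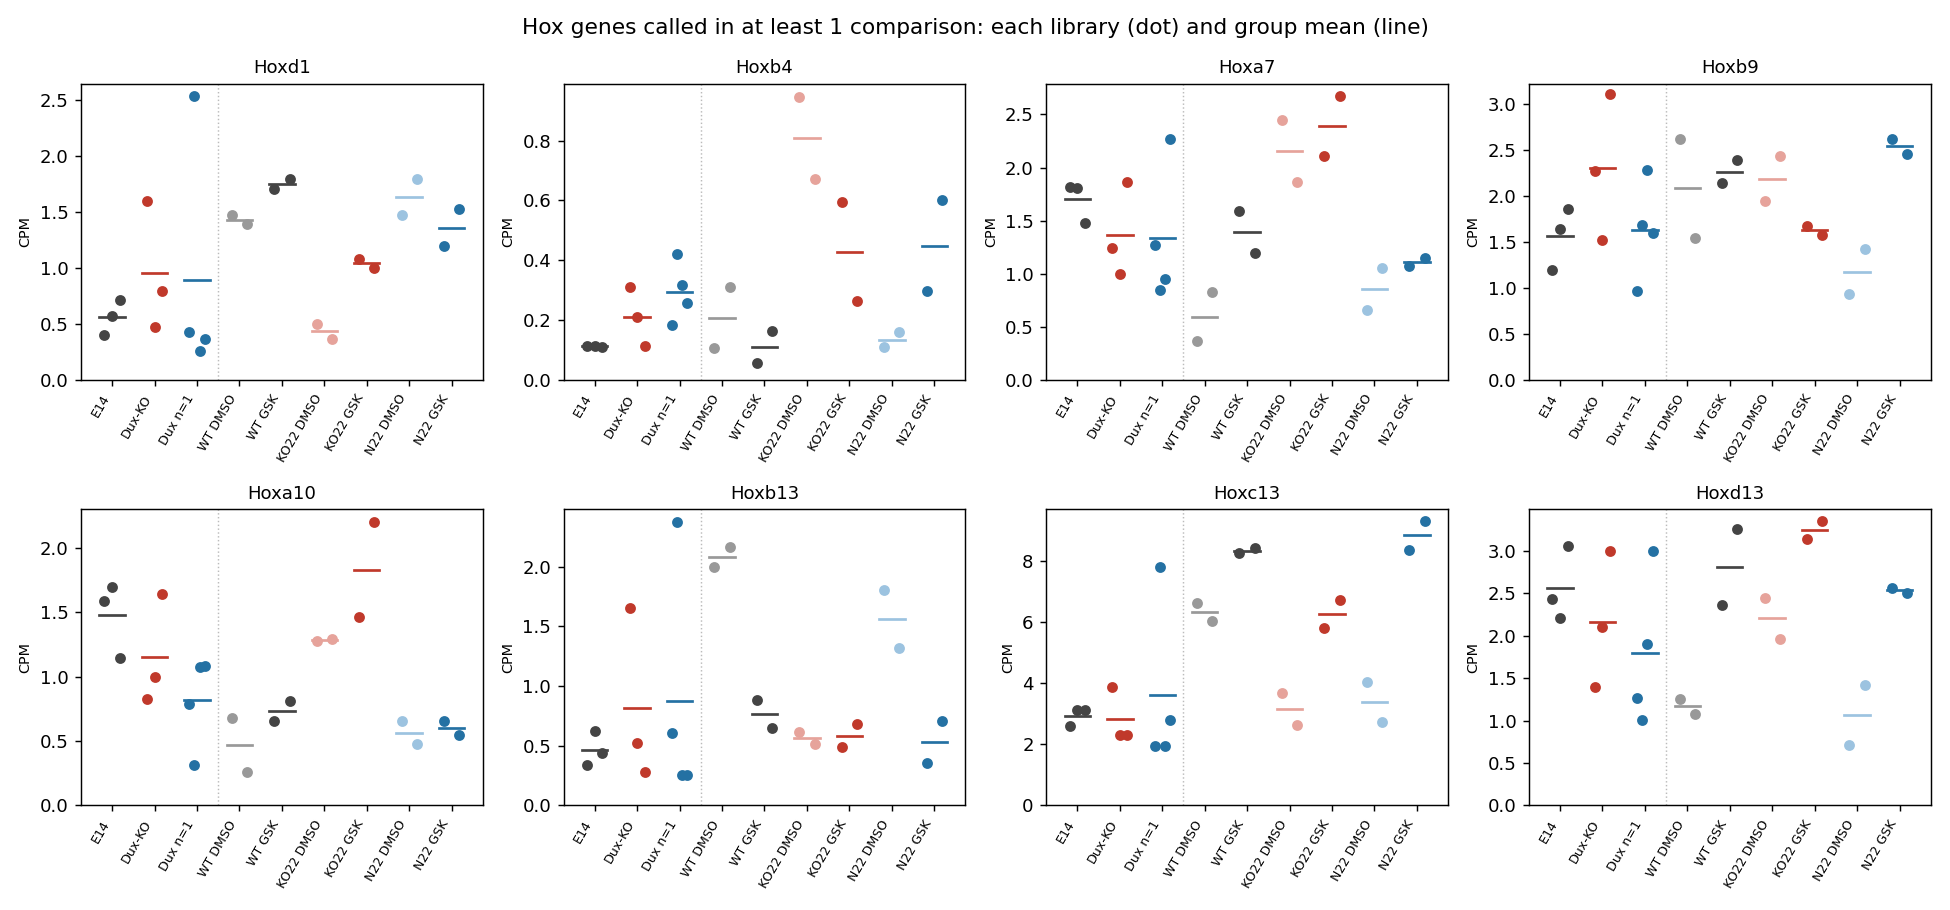
CPM (y axis, from 0) of the 8 Hox genes called in at least 1 comparison, by group (x axis); dots are libraries, short lines are group means, and the dotted line separates the untreated from the treated set. The Dux n=1 clone 22 dot lies apart from the other 3 clones for Hoxd1, Hoxb13 and Hoxc13.

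In untreated Dux-KO clones none of the 8 tested members was called against E14 by edgeR, whereas 20.4% of all genes tested were called (3016 genes, and 931 without E14 library 1). Of the 8, 1 had an unadjusted p below 0.05, and DESeq2 called 1, in both cases Hoxc4. The 8 tested members had a median change of 0.20, beside 0.02 over all genes.

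Clones of the Dux-KO group stood apart from each other in 2 central genes. Hoxc4 had 2, 1 and 0 counts in E14 and 18, 2 and 11 in Dux-KO clones 15, 22 and 52. Clones 15 and 52 were above all 3 E14 libraries, and clone 22 was within their range. The change was 3.09 ± 1.10 (edgeR, adjusted p = 0.0684), with an adjusted p of 0.0495 by DESeq2. With at most 2 counts in E14, Hoxc4 passed the filter (a count of 10) only through edited clones. Its test was therefore open to a rise over E14 and hardly to a fall. Over the 6 omissions of 1 library the edgeR adjusted p ran from 0.0297 (without clone 22, change 3.56) to 0.214. Hoxa4, which was below the filter, had 1, 2 and 1 counts in E14 and 19, 1 and 12 in the same clones, a ratio of 7.66 for the summed counts (95% counting interval 2.71 to 29.8). Again clones 15 and 52 were high, and clone 22 lay at the level of E14. Mean levels of both genes were also higher in Dux n=1 clones than in E14. Hoxc4 changed by 2.78 ± 1.09 there (edgeR, adjusted p = 0.121). Hoxa4 summed to 23 counts against 4, a ratio of 4.37 (1.49 to 17.4). In Dux-KO, central Hoxb7 summed to 29 counts against 7 in E14 (3.96, 1.70 to 10.7). Posterior Hoxc12 went the other way, with 10 against 22 (0.435, 0.184 to 0.957). For Dux-KO against E14, a fit with no filter called 1 of the 38 members, Hoxa4, where 9.52% of all genes were called. The posterior-mesoderm markers summed to 9.73 to 10.5 CPM in E14 and 11.9 to 22.9 in Dux-KO. Of 6 tested, 2 were called higher, beside 1370 of all 14796 genes tested. The part of these markers in the Hox values was not tested.

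The other members with many counts showed no called change in untreated cells. Hoxd13 had 43, 39 and 56 counts in E14, 27, 40 and 53 in Dux-KO clones 15, 22 and 52, and 21, 19, 30 and 58 in Dux n=1 clones 17, 22, 31 and 40. Hoxb9 had 21, 29 and 34 counts, then 44, 29 and 55, then 16, 32, 36 and 31 in the same order. Hoxa7 had 32, 32 and 27, then 24, 19 and 33, then 21, 16, 15 and 44, and Hoxa10 had 28, 30 and 21, then 16, 19 and 29, then 13, 6, 17 and 21. The groups overlapped for each of these genes, except that all Dux n=1 clones were below the E14 libraries in Hoxa10 CPM (-0.88 ± 0.44, edgeR adjusted p = 0.213). Hoxb4 stayed at 2 to 8 counts in all 10 untreated libraries, and Hoxc12, below the filter there, at 1 to 15.

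In Dux n=1 clones none of the 8 tested members was called by edgeR against E14, where 9.16% of all genes were (1355 genes, and 24 without E14 library 1). Of the 8, 1 had an unadjusted p below 0.05, Hoxc4 (2.78 ± 1.09). DESeq2 also called none. Between the 2 kinds of edited clone no member was called by edgeR or DESeq2, none had an unadjusted p below 0.05, and 0% of all genes were called there.

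Clone 22 of the Dux n=1 group differed from the other 3 clones in 3 members. Hoxd1, the anterior HoxD gene (chromosome 2, 74762980 to 74765142, plus strand), had 7, 48, 4 and 7 counts in clones 17, 22, 31 and 40. Hoxb13, the most posterior HoxB gene, known from the prostate and the tail end (chromosome 11, 96194316 to 96197447, plus strand), had 10, 45, 4 and 5. Hoxc13, the most posterior HoxC gene, known for its role in hair and nails (chromosome 15, 102921103 to 102928814, plus strand), had 32, 148, 31 and 54. For each of these genes clone 22 was the highest of the 4 clones, and above the 3 E14 libraries. E14 had 7, 10 and 13 counts of Hoxd1, 6, 11 and 8 of Hoxb13 and 46, 55 and 57 of Hoxc13. Dux-KO clones 15, 22 and 52 had 31, 9 and 14 of Hoxd1 and 32, 10 and 5 of Hoxb13, so clone 15 was the highest of its group in both.

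With the degrader, tested Hox genes were called in both directions in WT and N22 and only higher in KO22. In WT cells 3 of 11 tested members were called (56.8% of all genes were), in KO22 2 of 11 (46% of all genes) and in N22 4 of 11 (53% of all genes). The median change of the 11 tested members was 0.23 in WT, 0.42 in KO22 and 0.57 in N22, beside 0.00 over all genes in each. The 3 tested genes numbered 13 (Hoxb13, Hoxc13 and Hoxd13) gave 6 of these 9 calls. Hoxc13 and Hoxd13 also had the most counts of all members (1920 and 867), and genes with more counts are easier to call. Whether genes numbered 13 respond more than other members was not tested. WT, KO22 and N22 each have their own DMSO libraries in these comparisons.

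Hoxd13, the most posterior HoxD gene, which shapes digits and the genital region (chromosome 2, 74668310 to 74671599, plus strand; its window with 37 CG is printed above), rose in WT and N22. In WT it went from 24 and 21 counts with DMSO to 43 and 60 with GSK-3484862, and in N22 from 13 and 27 to 43 and 46. In KO22 the DMSO counts were 44 and 38, and those with the compound 58 and 64. The treated libraries were above the DMSO libraries in each genotype, and KO22 started at a higher level. The change was 1.20 ± 0.31 in WT (edgeR, adjusted p = 0.000835), 1.19 ± 0.33 in N22 (adjusted p = 0.0016) and 0.55 ± 0.28 in KO22 (adjusted p = 0.101). Without N22 DMSO library 1 the N22 change was 0.78, with an adjusted p of 0.0861. The response of KO22 differed from that of WT by -0.65 ± 0.42 (adjusted p = 0.255), so a difference in response was not detected.

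Hoxc13 rose in both edited clones. KO22 had 66 and 51 counts of it with DMSO, then 107 and 128 with the compound, and 74 and 52 against 140 and 171 in N22. In WT it was already at 126 and 117 counts with DMSO, beside 150 and 155 with the compound. With the compound WT and N22 libraries overlapped, while with DMSO WT was above both clones. The change was 0.98 ± 0.20 in KO22 (edgeR, adjusted p = 3.34e-05), 1.34 ± 0.19 in N22 (adjusted p = 1.11e-08) and 0.34 ± 0.17 in WT (adjusted p = 0.0883). The N22 response exceeded that of WT by 1.00 ± 0.26 (adjusted p = 0.00508), the 1 member of 11 called in that comparison, where 11.1% of all genes were. Without N22 DMSO library 2 this difference was 0.74 with an adjusted p of 0.103. For KO22 against WT none of 11 members was called by edgeR (31.8% of all genes were), 2 had an unadjusted p below 0.05 and DESeq2 called none; the Hoxc13 difference was 0.64 ± 0.26 (adjusted p = 0.0542).

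Hoxb13 went the other way. It fell from 38 and 42 counts to 16 and 12 in WT (-1.50 ± 0.41, edgeR adjusted p = 0.00137) and from 33 and 25 to 6 and 13 in N22 (-1.57 ± 0.46, adjusted p = 0.00281). In KO22 it was low before and after, with 11 and 10 counts with DMSO and 9 and 13 with the compound (0.04 ± 0.52). With the compound the 3 genotypes lay at 0.766, 0.585 and 0.533 CPM in WT, KO22 and N22, beside 0.565 in KO22 with DMSO. Without N22 GSK-3484862 library 1 the N22 change was -1.17 with an adjusted p of 0.0696.

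Hoxa7, Hoxd1 and Hoxb9 were each called in 1 genotype. Hoxa7, a central HoxA gene (chromosome 6, 52214491 to 52221854, minus strand), had 7 and 16 counts in WT with DMSO against 29 and 22 with the compound (1.15 ± 0.43, edgeR adjusted p = 0.0185). Without WT DMSO library 1 this was 0.69 with an adjusted p of 0.247, and the call was also lost without WT GSK-3484862 library 1. Hoxd1 had 9 and 7 counts in KO22 with DMSO and 20 and 19 with the compound (1.25 ± 0.47, adjusted p = 0.0247), a call that DESeq2 did not make (adjusted p = 0.0642) and that was lost in 3 of 4 omissions of 1 library (adjusted p from 0.0469 to 0.160; the call held without KO22 DMSO library 1). In WT Hoxd1 had 28 and 27 against 31 and 33, and in N22 27 and 34 against 20 and 28, so KO22 was the genotype with the low start. Hoxb9, a posterior gene of the trunk (chromosome 11, 96271457 to 96276595, plus strand), had 17 and 27 counts in N22 with DMSO and 44 and 45 with the compound (1.05 ± 0.33, adjusted p = 0.00515). Without N22 DMSO library 1 the Hoxb9 change was 0.78 with an adjusted p of 0.0967. Differences between the genotypes' responses were not called for any of the 3 genes. Hoxa10 and Hoxb4 were not called with the compound in any genotype: Hoxa10 had 12 and 15 counts with it in WT, 27 and 42 in KO22 and 11 and 10 in N22 (12 and 9 with DMSO), and Hoxb4 had 1 and 3, 11 and 5, and 5 and 11 (2 and 3 in N22 with DMSO). In KO22 Hoxa7 had 39 and 51 counts with the compound, and in N22 12 and 20 with DMSO against 18 and 21. Hoxb9 had 50 and 30 against 39 and 44 in WT, and 35 and 47 against 31 and 30 in KO22. Hoxc12, a posterior gene next to Hoxc13, was not called either, with 15 and 14 counts with DMSO against 15 and 12 with the compound in WT, 3 and 11 against 12 and 7 in KO22 and 7 and 4 against 7 and 9 in N22.

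**Figure D4:**
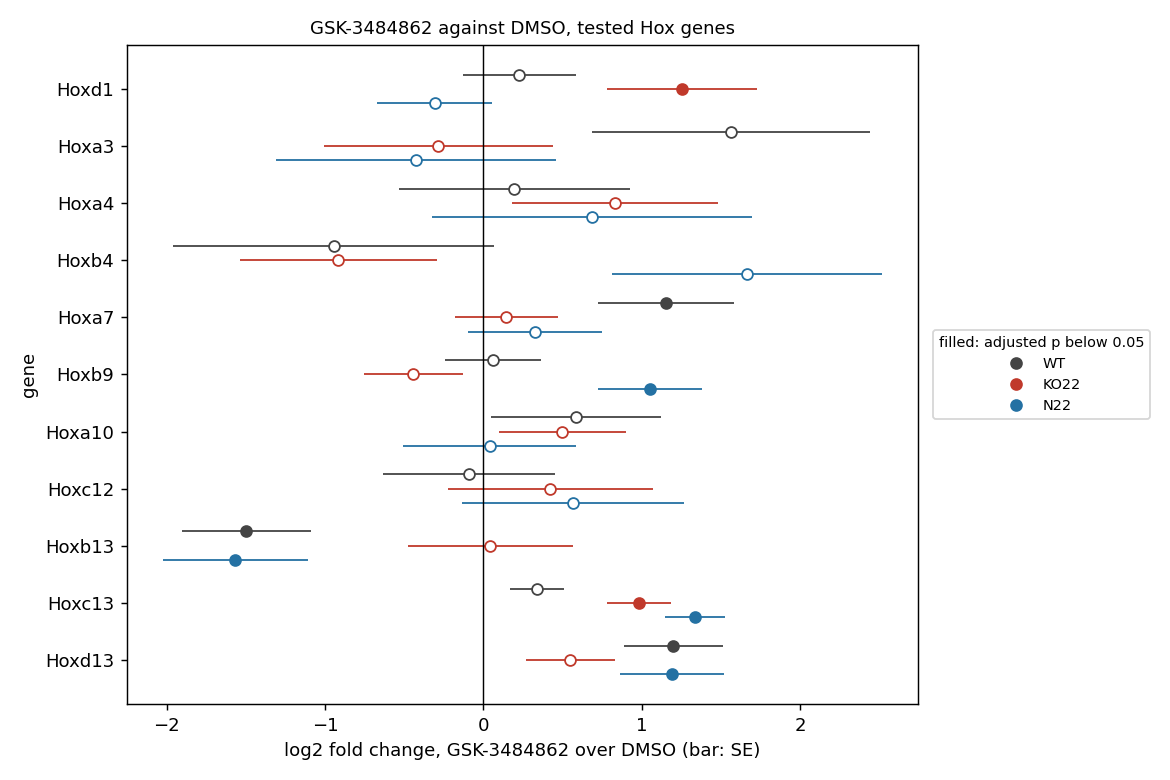
Log2 fold change of GSK-3484862 over DMSO (x axis) for 11 tested Hox genes (rows, by number) in WT, KO22 and N22; bars are standard errors and filled symbols have an adjusted p below 0.05. Hoxb13 lies left of 0 where filled, and Hoxc13 and Hoxd13 lie right.

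Members under the filter differed in both directions with the compound, at the level of single counts. Hoxa11, a posterior gene of limb and uterus, had 0 and 0 counts in WT with DMSO and 1 and 9 with the compound. Hoxb8 had 0 and 0 against 2 and 8. For both genes the summed 10 counts were 3.50 times the floor of 3 counts over the DMSO group, a ratio without a counting interval. Hoxd9, a posterior HoxD gene, had 4 and 0 counts in WT with DMSO, 7 and 9 with the compound, 3 and 3 against 12 and 9 in KO22, and 0 and 3 against 7 and 5 in N22. Its summed counts were higher with the compound in all 3 genotypes, by 4.21-fold in WT (95% counting interval 1.36 to 17.3), 3.48-fold in KO22 (1.36 to 10.5) and 4.25-fold in N22 (1.15 to 23.4). Hoxa9 had 1 and 1 counts in WT with DMSO and 6 and 9 with the compound, a ratio of 7.89 (1.83 to 71.1), and Hoxc11 1 and 0 against 3 and 8 in N22, a ratio of 11.7 (1.70 to 503). Lower with the compound were Hoxc4 in KO22, with 9 and 6 counts against 2 and 2 (ratio 0.265, 0.0640 to 0.832), and Hoxb7 in N22, with 12 and 8 against 1 and 5 (0.318, 0.105 to 0.822). Hoxa13 summed to 15 counts over the KO22 libraries without the compound and to 5 with it, and the groups overlapped (0.331, 0.0942 to 0.959). Hoxa11 summed to 17 counts both with and without the compound in KO22. All other ratios taken for the compound had intervals that included 1. Among them, Hoxb7 in WT summed to 13 counts with the compound and 6 without (2.28, 0.808 to 7.31). Hoxc4 had ratios of 0.719 in WT (0.327 to 1.54) and 0.955 in N22 (0.344 to 2.62). Fitting all genes with no filter called 5 of the 38 members in WT, where 32.2% of all genes were called, 1 in KO22 (26.3%) and 4 in N22 (29.8%), and Hoxa11 and Hoxb8 were among the 5.

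Summed over clusters, HoxC and HoxD were higher with the compound in all 3 genotypes. HoxC went from 7.95 ± 0.695 to 10.0 ± 0.246 CPM (SD, n = 2 here and below) in WT, from 4.38 ± 0.491 to 7.48 ± 0.624 in KO22 and from 4.07 ± 1.20 to 10.5 ± 0.739 in N22. HoxD went from 3.41 ± 0.450 to 5.76 ± 0.836 CPM in WT, from 3.44 ± 0.253 to 5.73 ± 0.0147 in KO22 and from 3.05 ± 0.761 to 4.66 ± 0.346 in N22. The HoxA members described went from 2.05 ± 0.211 to 4.34 ± 0.694 CPM in WT and from 5.61 ± 0.403 to 6.64 ± 0.261 in KO22, and were at 2.57 ± 0.621 and 2.66 ± 0.210 in N22. HoxB was at 4.58 ± 0.502 and 3.85 ± 0.235 in WT, 4.28 ± 0.158 and 3.65 ± 0.194 in KO22, and 3.57 ± 0.0486 and 4.09 ± 0.383 in N22. The HoxC sum is mostly Hoxc13 and the HoxD sum mostly Hoxd13 and Hoxd1. These sums carry no test.

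With DMSO, KO22 and WT cells differed in several Hox transcripts. Of 11 tested members 7 were called, where 51.9% of all genes were called: 4 were higher (23.4% of all genes) and 3 lower (28.5%). Higher in KO22 were Hoxa7, Hoxa10, Hoxb4 and Hoxd13, and lower were Hoxc13, Hoxb13 and Hoxd1. The median change of the 11 tested members was 0.22, beside -0.04 over all genes. This comparison shares its DMSO libraries with the compound comparisons in WT and KO22.

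The higher genes came from HoxA, HoxB and HoxD. Hoxa7 had 44 and 36 counts in KO22 and 7 and 16 in WT (1.82 ± 0.40, edgeR adjusted p = 0.000101). Hoxa10, which patterns the uterus and limbs (chromosome 6, 52231197 to 52240854, minus strand), had 23 and 25 against 13 and 5 (1.43 ± 0.49, adjusted p = 0.0116). Hoxb4, a central gene known from blood stem cells (chromosome 11, 96318267 to 96321638, plus strand), had 17 and 13 against 2 and 6 (1.91 ± 0.70, adjusted p = 0.0189). The Hoxd13 change was 0.89 ± 0.32 (adjusted p = 0.0173). All KO22 libraries were above both WT libraries in these 4 genes. Leaving out 1 library ended the call for Hoxa10 (without WT DMSO library 2, 0.89, adjusted p = 0.199), Hoxb4 (without KO22 DMSO library 1, 1.65, adjusted p = 0.137, or WT DMSO library 1, 1.35, adjusted p = 0.202) and Hoxd13 (without KO22 DMSO library 1, 0.73, adjusted p = 0.131, or WT DMSO library 2, 0.79, adjusted p = 0.106). Hoxa7 stayed called in each omission.

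The lower genes were Hoxc13, Hoxb13 and Hoxd1. Hoxc13 was at 3.16 ± 0.731 CPM in KO22 and 6.32 ± 0.415 in WT (-1.02 ± 0.20, edgeR adjusted p = 1.12e-05). Hoxb13 was at 0.565 ± 0.067 CPM against 2.08 ± 0.119 (-1.89 ± 0.43, adjusted p = 0.000155), and Hoxd1 at 0.431 ± 0.098 against 1.43 ± 0.0559 (-1.74 ± 0.45, adjusted p = 0.000763). These 3 calls remained in each omission of 1 library. These are also the members in which untreated Dux n=1 clone 22 was high. Below the filter, Hoxa11 had 6 and 11 counts in KO22 and 0 and 0 in WT, and Hoxb8 had 5 and 5 against 0 and 0. The summed counts were 5.85 and 3.44 times the floor, ratios without a counting interval. With no filter 9 of 38 members were called, Hoxa11 and Hoxb8 among them, and 28.6% of all genes.

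N22 differed from WT in DMSO by 1 call of 11, and 25.4% of all genes were called. Hoxc13 had 74 and 52 counts in N22 and 126 and 117 in WT (-0.90 ± 0.20, edgeR adjusted p = 0.000257), and this held in each omission of 1 library. The Hoxb9 change was -0.82 ± 0.33 (adjusted p = 0.0626). Hoxd1 and Hoxb13, which separated KO22 from WT, had 27 and 34 and 33 and 25 counts in N22 (0.19 ± 0.36 and -0.41 ± 0.37 against WT). The medians were -0.41 over the 11 tested members and -0.02 over all genes.

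**Figure D5:**
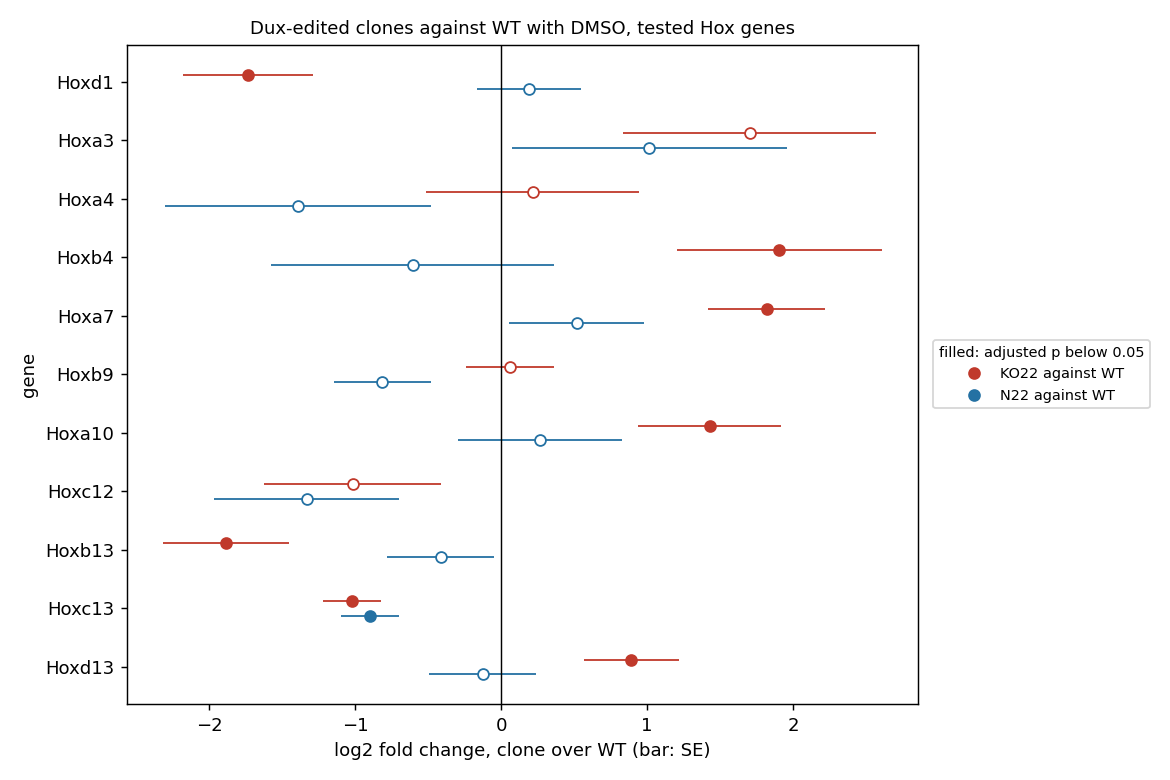
Log2 fold change of KO22 or N22 over WT, all with DMSO (x axis), for 11 tested Hox genes (rows, by number); bars are standard errors and filled symbols have an adjusted p below 0.05. KO22 has 7 filled symbols on both sides of 0, and N22 has 1, for Hoxc13.

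With the compound, 1 difference between a clone and WT was called. KO22 differed from WT in 1 of 11 members, Hoxa10, with 27 and 42 counts against 12 and 15 (1.34 ± 0.44, edgeR adjusted p = 0.0186), and 22.4% of all genes were called. DESeq2 did not call it (adjusted p = 0.0867) and 3 of 4 omissions of 1 library ended the call, with adjusted p from 0.0207 to 0.243 over the 4. Hoxd1 was still lower in mean, at 1.04 ± 0.0609 CPM in KO22 and 1.75 ± 0.0613 in WT (-0.71 ± 0.37, adjusted p = 0.174). N22 against WT with the compound had no call among 11 members by edgeR or DESeq2, and 1 had an unadjusted p below 0.05, where 9.65% of all genes were called.

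Levels of the same genes in the 2 sets are given side by side without a test, since the sets share no control. Hoxc13 lay at 2.94 ± 0.292 CPM (SD, n = 3) in E14 and at 6.32 ± 0.415 (SD, n = 2) in WT with DMSO. Hoxb13 lay at 0.466 ± 0.143 and 2.08 ± 0.119, and Hoxd1 at 0.557 ± 0.157 and 1.43 ± 0.0559. Untreated Dux-KO clone 22 and KO22 with DMSO both had low Hoxd1 (9 counts against 9 and 7) and Hoxb13 (10 against 11 and 10). Untreated Dux n=1 clone 22 and N22 with DMSO both had high counts of them (48 against 27 and 34, and 45 against 33 and 25). Hoxc13 did not show this likeness, with 148 counts in clone 22 (7.80 CPM) and 74 and 52 in N22 with DMSO (3.39 ± 0.917 CPM), below WT. For Hoxd1 and Hoxb13, E14 and the other Dux n=1 clones were also low, and WT with DMSO was also high. Neither level was thus particular to clones numbered 22. The labels do not state that clones with the same number are the same line.

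Of the protein-coding genes within 250 kb of the clusters, 10 of 17 tested were called in WT with the compound, beside 56.8% of all genes. Evx1, a homeobox gene beside the posterior end of HoxA, had 2 and 1 counts in WT with DMSO and 26 and 31 with the compound (4.15 ± 0.60, edgeR adjusted p = 1.33e-08). KO22 had 47 and 55 of it with DMSO, then 67 and 85 (0.55 ± 0.27, adjusted p = 0.0899), and in N22 6 and 8 against 29 and 45 (2.42 ± 0.42, adjusted p = 1.26e-06). Its response in KO22 was lower than in WT by a called -3.59 ± 0.70 (adjusted p = 3.08e-05). The long noncoding RNA Halr1, near the anterior end of HoxA, went the other way. It had 462 and 439 counts against 372 and 374 in WT (-0.26 ± 0.09, adjusted p = 0.00662), 963 and 1121 against 623 and 648 in KO22 (-0.73 ± 0.07, adjusted p = 1.92e-13) and 585 and 626 against 253 and 288 in N22 (-1.12 ± 0.09, adjusted p = 2.78e-18). The other called neighbours in WT with the compound were Skap2 at HoxA, Igf2bp1, Calcoco2 and Ttll6 at HoxB, Atp5g2, Calcoco1, Cbx5 and Hnrnpa1 at HoxC and Mtx2 at HoxD.

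In the list of ParaHox and Evx genes (8, of which 7 were tested), 4 rose and 2 fell with the compound in WT, 3 rose and 1 fell in KO22 and 3 rose and 2 fell in N22, beside 56.8%, 46% and 53% of all genes called in either direction. Gsx1, a ParaHox gene of the brain, rose by 4.14 ± 0.61, 2.38 ± 0.43 and 2.77 ± 0.53 in WT, KO22 and N22 (edgeR adjusted p = 2.23e-08, 4.39e-06 and 9.8e-06). The 3 Cdx genes, known activators of Hox genes, did not move together. Cdx4 rose in all 3 genotypes, by 3.13 ± 0.81, 1.82 ± 0.52 and 2.48 ± 0.73 (adjusted p = 0.000744, 0.00273 and 0.00333). Cdx2 rose in WT (4.02 ± 0.80, adjusted p = 1.75e-05) and KO22 (1.77 ± 0.47, adjusted p = 0.00132), with a change of 1.02 ± 0.54 in N22 (adjusted p = 0.104). Cdx1 fell in all 3, by 0.44 ± 0.17, 1.28 ± 0.14 and 0.91 ± 0.18 on the log2 scale (adjusted p = 0.0231, 3.97e-12 and 2.2e-05). Cdx1 was also called higher in Dux-KO against E14 (2.15 ± 0.54, adjusted p = 0.0183) and in KO22 against WT in DMSO (1.68 ± 0.14, adjusted p = 3.6e-16). Cdx1 had 502, 80 and 370 counts in Dux-KO clones 15, 22 and 52 and 63, 71 and 62 in E14.

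Regulators and partners of Hox genes changed in both directions with the compound, where 56.8% of all genes were called in WT, 46% in KO22 and 53% in N22. Of 12 PRC2 genes, which write the silencing mark H3K27me3, 4 rose and 6 fell in WT, 3 rose and 6 fell in KO22 and 2 rose and 9 fell in N22. Ezh1, a catalytic subunit, fell by 0.86 ± 0.07 on the log2 scale in WT (edgeR, adjusted p = 3.92e-17) and Ezh2, the other one, by 0.31 ± 0.04 in N22 (adjusted p = 3.66e-09). Of 19 PRC1 genes, 5 rose and 8 fell in WT, 7 and 3 in KO22 and 5 and 8 in N22, with Bmi1 up by 1.74 ± 0.14 in WT (adjusted p = 7.3e-18). Of 11 MLL/COMPASS and H3K27 demethylase genes, 3 rose and 5 fell in WT, 1 and 5 in KO22 and 1 and 7 in N22. Of 9 Hox cofactors (PBX, MEIS and PKNOX), 3 rose and 4 fell in WT, 2 and 3 in KO22 and 2 and 3 in N22. Of 18 retinoic acid pathway genes (14 tested), 3 rose and 3 fell in WT, 9 and 1 in KO22 and 6 and 4 in N22.

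Markers of cell types shifted with the compound beside these changes. Summed levels of 8 ES cell markers fell from between 5140.47 and 5517.45 CPM to between 4172.02 and 4331.57 CPM. The 11 fibroblast markers summed to 4.97 to 6.02 CPM with DMSO and 11.4 to 18.5 with the compound. Only 4 of the 11 could be tested, and 4, 3 and 3 were called higher in WT, KO22 and N22. Over all 16641 genes tested, 4776, 4124 and 4481 were called higher. With DMSO 6, 7 and 5 of the 11 were at 0 in WT, KO22 and N22, and with the compound 3, 3 and 1. S100a4 was at 0 in all 6 groups. The 10 posterior and mesoderm markers summed to 15.3-17.4 CPM with DMSO and 19.5-23.3 with the compound. The 8 neural markers summed to 26.8-44.1 and 50.1-66.9, and the 8 endoderm markers to 4.91-9.40 and 11.0-20.6. The part of any of these in the Hox changes was not tested, and in bulk samples fewer cells of a type and less RNA per cell cannot be told apart.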

How the data were processed

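The deposited files hold raw counts of fragments over exons for each Ensembl gene, 1 table a library. Per the submitters' processing notes the tools were fastp 0.23.2, HISAT2 2.1.0, featureCounts 2.0.1 and DESeq2 1.40.2 on GRCm38, and per the file headers the authors' counting used no strand and no reads mapping to several places. Groups and clone numbers came from the sample titles. Identifiers were matched to GENCODE M21 symbols (47310 of 47729 had one). The 2 sets were fitted apart in R 4.3.3 with edgeR 4.0.16 (quasi-likelihood tests with robust estimates, TMM scaling, Benjamini-Hochberg adjustment over all genes tested), after filterByExpr at a count of 10; the common biological coefficient of variation was 0.208 untreated and 0.0435 treated. CPM are scaled to the library total. Ratios of summed counts have exact 95% intervals. Where a group was at 0, the ratio is to a floor of 3 counts and has no interval. Also run were a fit of all genes unfiltered, DESeq2 1.42.0, RLE factors, an offset for GC content, fits of only the compared groups, a replicate block and leaving out each library. The tests were checked on simulated data. Values are given for the members called in any comparison and for the 8 of the 38 described with the most counts; called means an adjusted p below 0.05. Other members named with values (Hoxa4, Hoxc4, Hoxa9, Hoxa11, Hoxa13, Hoxb7, Hoxb8, Hoxc11, Hoxd9, and the 4 with the fewest counts) were chosen after their values were seen. Of the members, 1 is not reported here. The members and gene lists were chosen with earlier results of these data known. No 2 libraries held identical values.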

Additional observations from a re-analysis of the deposited data

Results flagged for a closer look

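In the Dux n=1 group, clone 22 lay far from the other 3 clones in Hoxb13 (2.37 CPM), Hoxc13 (7.80 CPM), Hoxd1 (2.53 CPM) and the HoxC sum (9.76 CPM), with a gap to the next clone that was large against the range of the 4. Such a gap arises by chance in about 1 of 20 groups, and 16 were looked at. The HoxC sum contains Hoxc13. The Hoxc13 response to GSK-3484862 was larger in N22 than in WT by 1.00 on the log2 scale (edgeR, adjusted p = 0.00508), from a DMSO level of 3.39 ± 0.917 CPM in N22 and 6.32 ± 0.415 in WT (SD, n = 2) to 8.84 ± 0.683 and 8.33 ± 0.117.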

How the results depend on the processing

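No result reversed under an alternative. The number of Hox genes called in Dux-KO against E14 was 0, and 1 with no filter, 1 with DESeq2 and 0 to 2 without 1 library (2 without Dux-KO clone 22). For GSK-3484862 in WT it was 3, and 5 with no filter and 3 to 4 without 1 library, in KO22 it was 2, and 1 with no filter, 1 with DESeq2 and 1 to 2 without 1 library, and in N22 it was 4, and 2 to 5 without 1 library. For the response of KO22 minus that of WT it was 0, and 1 with no filter, 1 with only the compared groups and 0 to 2 without 1 library, and for that of N22 it was 1, and 0 to 1 without 1 library. For N22 against WT in DMSO it was 1, and 1 to 2 without 1 library, and for KO22 against WT with the compound it was 1, and 0 with DESeq2 and 0 to 1 without 1 library. The other counts stayed within 1.5 times. RLE factors and the GC content offset changed no call among the Hox genes. Over all genes, calls in Dux-KO against E14 numbered 3016, and 1053 with that offset (45.4% and 57.9% of them higher). In Dux n=1 against E14 they numbered 1355, and 310 with the offset, 2515 with DESeq2 and 2450 with only the compared groups. Leaving out E14 library 1, 2 or 3 gave 931, 1739 and 1171 for Dux-KO and 24, 344 and 52 for Dux n=1. Without Dux-KO clone 15 the first was 1977, and without Dux n=1 clone 17 the second was 351. N22 against WT in DMSO had 4221, and 2811 without N22 DMSO library 2. DESeq2 gave 1178 in place of 1844 for the response of N22 minus that of WT, 2451 in place of 3728 for KO22 and 935 in place of 1606 for N22 against WT with the compound, which gave 884 to 972 without any 1 of its libraries. Fits without 1 library also tested more members, since the filter then passes genes with fewer counts. Replicate numbers did not pair the samples (correlations from -0.18 to 0.33 over 15 pairs of groups, 2 of them above 0.1), and the replicate block changed no call: it gave 3, 2 and 4 called Hox genes for the compound in WT, KO22 and N22. Depth limits the rest: 26 of 38 members had too few counts to be tested in either set.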
